A study of Rattus norvegicus with 12 samples.

Results

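The transcripts of 9 amino acid transporter genes (Slc7a5, Slc3a2, Slc7a11, Slc7a1, Slc7a3, Slc1a5, Slc1a4, Slc38a2 and Slc6a9) were followed in 2 rat hepatic cell lines exposed to rapamycin. The members were chosen by gene name, with results of these same arrays already known: falls with rapamycin in these lines were among the values in view when the genes were selected. Every probe carrying 1 of the 9 names was taken. This gave 10 of the 22523 probes of the array, and 9 of its 13337 named genes, since Slc1a5 has 2 probes.

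The 4 groups compared held 3 arrays each, each array holding total RNA of a separate culture plate. They were GN5 cells with 50 nM rapamycin for 24 h, GN5 cells with dimethyl sulfoxide vehicle for 24 h, H5D cells with 50 nM rapamycin for 24 h, and H5D cells with vehicle for 24 h. GN5 was derived with the agent labelled NNN from WB-F344, a rat liver epithelial line, and H5D came from a rat hepatocellular carcinoma raised with an azo dye. Both lines are labelled tumorigenic. The medium was DMEM/F12 with added glutamine for GN5 and Waymouth medium for H5D, so line and medium cannot be told apart in any comparison of the lines. Plates of a single line are the replicates, and p-values therefore measure the spread between plates.

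Amino acid transporters are membrane proteins that let cells take up amino acids or exchange those inside for those outside. The mTOR kinase complex that rapamycin inhibits responds to amino acids, leucine among them. Several carriers work in pairs: the light chain Slc7a5 (LAT1, for leucine and other large neutral amino acids) and the light chain Slc7a11 (xCT, which exchanges cystine for glutamate) each bind the heavy chain Slc3a2 (CD98). Slc7a1 (CAT1) and Slc7a3 (CAT3) carry arginine and other cationic amino acids. Slc1a5 (ASCT2) and Slc1a4 (ASCT1) exchange neutral amino acids with sodium, Slc38a2 (SNAT2) takes up neutral amino acids with sodium, and Slc6a9 (GlyT1) takes up glycine.

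Signals are given as normalized log2 values, in which 1 unit is a doubling. A probe counted as detected where its detection p did not exceed 0.01, and it was called in a comparison at an adjusted p below 0.05 (limma, Benjamini-Hochberg over all probes tested). Levels of different probes are not on a common scale and were not compared with each other. Between 33% and 37.7% of probes were detected on an array. The median raw signal was 74.3 to 82.7 on 10 arrays, against 105.9 and 96.2 on GN5 vehicle replicates 2 and 3. The 5 hepatocyte markers on the array (from a list with Alb, Ttr and Hnf4a) were undetected on all arrays of both lines. Of the epithelial markers on the array, Krt8 was detected on all 12 arrays, and Cdh1 and Epcam on none. Of the mesenchymal markers, Vim and S100a4 were detected on all 12, and Col1a1 on every GN5 array but no H5D array.

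Promoter sequences were read from RefSeq (GRCr8), as 250 bases before and 50 after each gene's start. They were found for 7 of the 9 members, with 8 promoters in all. A set of 5 motifs was searched on both strands: TGATGNAA and its narrower form TGATGCAA (C/EBP-ATF response elements), CACGTG (an E-box), TGACGTCA (a cyclic AMP response element) and TGACGNAA. TGATGNAA was present in 2 members against 3.98% of all 33469 promoters, and CACGTG in 2 members against 6.42%. TGATGCAA, whose match lies within a TGATGNAA match, was present in 1 member against 0.795%. TGACGTCA (1.83% of all promoters) and TGACGNAA (1.97%) were in no member promoter. The 3 promoters with a match are shown 5′ to 3′ on the gene's strand. Slc7a5 and Slc7a1 lie among the members called with rapamycin and Slc1a4 does not. The promoters of Slc3a2 and Slc6a9, also called with rapamycin, held no match, and neither did those of Slc38a2 and Slc7a11. Capitals mark the matches, which are descriptions of letters and not of binding.
Slc7a5, chr19:66872363-66872662, minus strand, CACGTG starting 179 bases before the start: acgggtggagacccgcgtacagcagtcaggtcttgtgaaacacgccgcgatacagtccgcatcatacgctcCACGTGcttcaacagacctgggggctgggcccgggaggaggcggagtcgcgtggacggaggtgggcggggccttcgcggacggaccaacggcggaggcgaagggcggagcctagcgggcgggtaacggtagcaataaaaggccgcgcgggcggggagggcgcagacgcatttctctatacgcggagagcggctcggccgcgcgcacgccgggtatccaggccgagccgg
Slc7a1, chr12:11664238-11664537, plus strand, TGATGNAA starting 30 bases before the start: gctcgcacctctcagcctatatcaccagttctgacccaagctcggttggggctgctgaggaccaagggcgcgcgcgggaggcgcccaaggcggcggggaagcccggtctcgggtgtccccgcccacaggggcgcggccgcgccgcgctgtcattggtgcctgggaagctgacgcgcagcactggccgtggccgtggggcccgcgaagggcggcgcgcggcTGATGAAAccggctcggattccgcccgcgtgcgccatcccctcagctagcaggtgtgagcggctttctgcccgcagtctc
Slc1a4, chr14:98761513-98761812, minus strand, TGATGNAA on the other strand from 235 bases and CACGTG from 20 bases before the start: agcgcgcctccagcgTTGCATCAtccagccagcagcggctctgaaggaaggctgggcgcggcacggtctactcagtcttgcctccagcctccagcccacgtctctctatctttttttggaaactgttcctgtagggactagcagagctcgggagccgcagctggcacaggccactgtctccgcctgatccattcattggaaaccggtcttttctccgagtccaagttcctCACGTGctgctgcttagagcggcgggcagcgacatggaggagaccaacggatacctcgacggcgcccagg

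The lines differed in which carriers were detected. Slc7a5, Slc3a2, Slc7a1 and Slc38a2 were detected on all 12 arrays. Slc7a3 was detected on all 3 H5D vehicle arrays and on no other array. Slc1a5 was detected on 5 of 6 GN5 arrays and all 6 H5D arrays, Slc1a4 on all 6 GN5 arrays and 2 of 6 H5D arrays, and Slc6a9 on 4 of 6 GN5 arrays and all 6 H5D arrays. Slc7a11 was undetected on all 12 arrays, as was the dimmer probe of Slc1a5, so neither entered a test and the Slc1a5 values are those of its brighter probe.

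**Figure D1:**
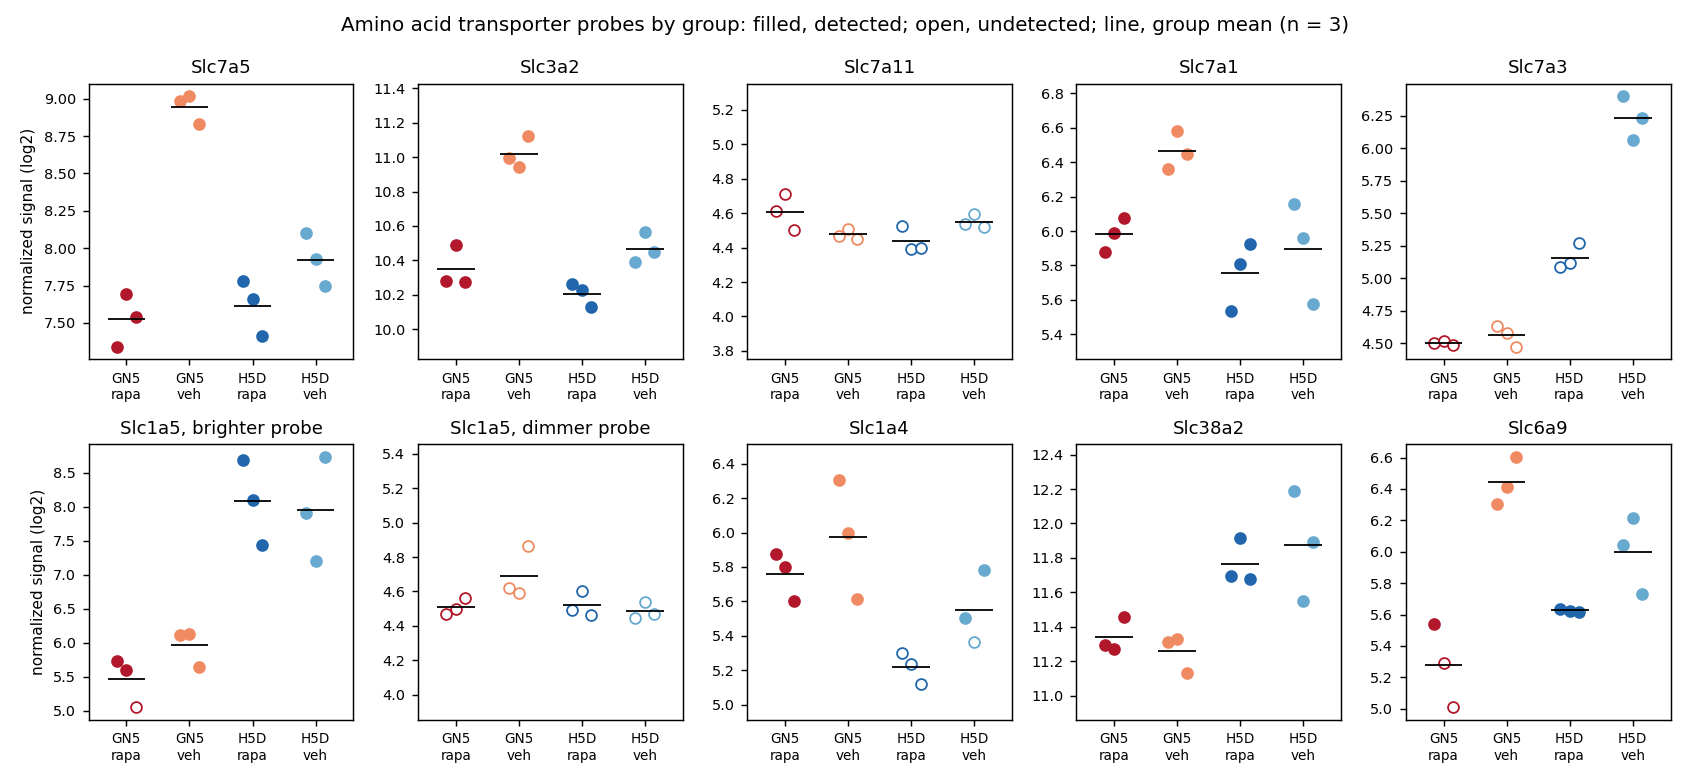
Normalized log2 signal (vertical axes, scaled per panel) of each of the 10 probes in GN5 rapamycin, GN5 vehicle, H5D rapamycin and H5D vehicle, with filled points for detected arrays, open points for undetected arrays and a line at the mean of 3 arrays. Slc7a5 stands highest in GN5 vehicle (mean 8.95), and the Slc7a3 points are filled in H5D vehicle alone (mean 6.23).

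With rapamycin, the light chain Slc7a5 and its heavy chain Slc3a2 were lower in GN5 cells. Slc7a5 measured 7.34, 7.70 and 7.54 in GN5 rapamycin, against 8.99, 9.02 and 8.83 in GN5 vehicle. Its difference was -1.42 (SE 0.112), a 2.67-fold lower signal, and the groups did not overlap. In H5D cells Slc7a5 measured 7.78, 7.66 and 7.41 with rapamycin, against 8.10, 7.93 and 7.75 with vehicle. These H5D groups overlapped, and the difference of -0.31 (SE 0.133) was not called. Ordered by mean level, Slc7a5 was highest in GN5 vehicle, followed by H5D vehicle, H5D rapamycin and GN5 rapamycin, and only the first step lay outside the overlap of neighbouring groups.

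Slc3a2 measured 10.28, 10.49 and 10.27 in GN5 rapamycin, against 10.99, 10.95 and 11.12 in GN5 vehicle. The difference was -0.67 (SE 0.103) without overlap. In H5D it measured 10.26, 10.23 and 10.13 with rapamycin, against 10.39, 10.57 and 10.45 with vehicle. The H5D arrays did not overlap either, but the difference of -0.26 (SE 0.101) was not called. Slc7a11, the other light chain that binds Slc3a2, ranged from 4.39 to 4.71 over the 12 arrays and was below detection on each.

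Of the cationic carriers, Slc7a1 was called with rapamycin in GN5 and Slc7a3 in H5D. Slc7a1 measured 5.88, 5.99 and 6.07 in GN5 rapamycin, against 6.36, 6.58 and 6.45 in GN5 vehicle, a difference of -0.48 (SE 0.102). This was the smallest called difference among the members in GN5, and its call was lost without GN5 vehicle replicate 2 (-0.42), GN5 rapamycin replicate 1 (-0.43) or GN5 rapamycin replicate 2 (-0.49), without the filter, with all 12 arrays in the fit and in the methods' t-test adjusted over all probes tested. The GN5 difference of Slc7a1 was -0.276 with the authors' values and -0.275 without background correction, and it was called in both. In H5D, Slc7a1 measured 5.53, 5.81 and 5.92 with rapamycin, against 6.15, 5.96 and 5.58 with vehicle, and these groups overlapped (-0.14, SE 0.162). Slc7a3 measured 5.09, 5.11 and 5.27 in H5D rapamycin, where it was undetected, against 6.40, 6.06 and 6.23 in H5D vehicle. The fitted difference was -1.08 (SE 0.117), and since the rapamycin arrays lay below detection the signal was at least 1.78-fold lower on this background-corrected scale, taken against the lowest detected signal of each rapamycin array. The fitted difference was -0.53 both with the authors' values and without background correction. The call was lost without H5D vehicle replicate 1 (-0.99), H5D rapamycin replicate 1 (-1.04) or H5D rapamycin replicate 2 (-1.06). In GN5, Slc7a3 ranged from 4.49 to 4.52 with rapamycin and from 4.48 to 4.64 with vehicle, below detection throughout.

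The glycine carrier Slc6a9 measured 5.54, 5.29 and 5.01 in GN5 rapamycin, against 6.30, 6.42 and 6.60 in GN5 vehicle. The difference was -1.16 (SE 0.137), and Slc6a9 was detected on 1 of the 3 GN5 rapamycin arrays. It was -0.60 with the authors' values and without background correction. In H5D it measured 5.64, 5.62 and 5.62 with rapamycin, against 6.04, 6.22 and 5.73 with vehicle. All H5D rapamycin arrays were below all H5D vehicle arrays, but the difference of -0.37 (SE 0.13) was not called. By mean level, Slc6a9 ran from GN5 vehicle through H5D vehicle and H5D rapamycin down to GN5 rapamycin, with no overlap between neighbours in that order.

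No neutral amino acid carrier of the Slc1 and Slc38 families was called with rapamycin in the fits of either line. Slc1a5 measured 5.73, 5.60 and 5.05 in GN5 rapamycin, against 6.11, 6.13 and 5.64 in GN5 vehicle, with overlap and a difference of -0.50 (SE 0.179, 95% interval -0.89 to -0.11). It was called, however, without GN5 vehicle replicate 3 (-0.66) or with the replicate number as a block (-0.50). In H5D it measured 8.70, 8.11 and 7.44 with rapamycin, against 7.91, 7.20 and 8.74 with vehicle, the widest spread of any member, and its difference of 0.13 had a 95% interval from -0.73 to 0.99. Slc1a4 measured 5.87, 5.80 and 5.60 in GN5 rapamycin, against 6.30, 6.00 and 5.62 in GN5 vehicle (difference -0.21, 95% interval -0.55 to 0.12). These Slc1a5 and Slc1a4 groups overlapped. In H5D, Slc1a4 measured 5.30, 5.24 and 5.12 with rapamycin, undetected on each array, against 5.50, 5.36 and 5.78 with vehicle. All H5D rapamycin arrays lay below all H5D vehicle arrays, as for 12.3% of all probes tested. Slc1a4 was detected on 2 of the 3 H5D vehicle arrays, so it was not tested in H5D. Slc38a2 measured 11.30, 11.27 and 11.46 in GN5 rapamycin, against 11.31, 11.33 and 11.13 in GN5 vehicle (0.08, 95% interval -0.14 to 0.31). In H5D it measured 11.70, 11.92 and 11.68 with rapamycin, against 12.19, 11.55 and 11.89 with vehicle (-0.11, 95% interval -0.47 to 0.24). The Slc38a2 groups overlapped in both lines.

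Counted over the genes tested, 4 of 7 members were called lower with rapamycin in GN5 and 1 of 7 in H5D, and no member was called higher. Among these, Slc7a3 in H5D and Slc6a9 in GN5 passed the detection filter only through the vehicle group, where they were higher. Of all probes tested, 3.46% were called lower in GN5 and 0.405% in H5D. All rapamycin arrays lay below all vehicle arrays for 4 of 7 members in GN5, against 13.8% of all probes, and for 3 of 7 in H5D (Slc7a3, Slc3a2 and Slc6a9), against 12.3% of all probes. The median difference of the tested members was -0.50 in GN5 (0.01 over all probes) and -0.26 in H5D (-0.01 over all probes). Since such differences were in view when the members were picked, these counts describe the members and support nothing. With GN5 vehicle replicates 2 and 3, the arrays of higher raw signal, left out, 2 of the members stayed called in GN5 (Slc7a5 and Slc6a9), while Slc3a2 (-0.64) and Slc7a1 (-0.38) did not. That setting was chosen after seeing the data.

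**Figure D2:**
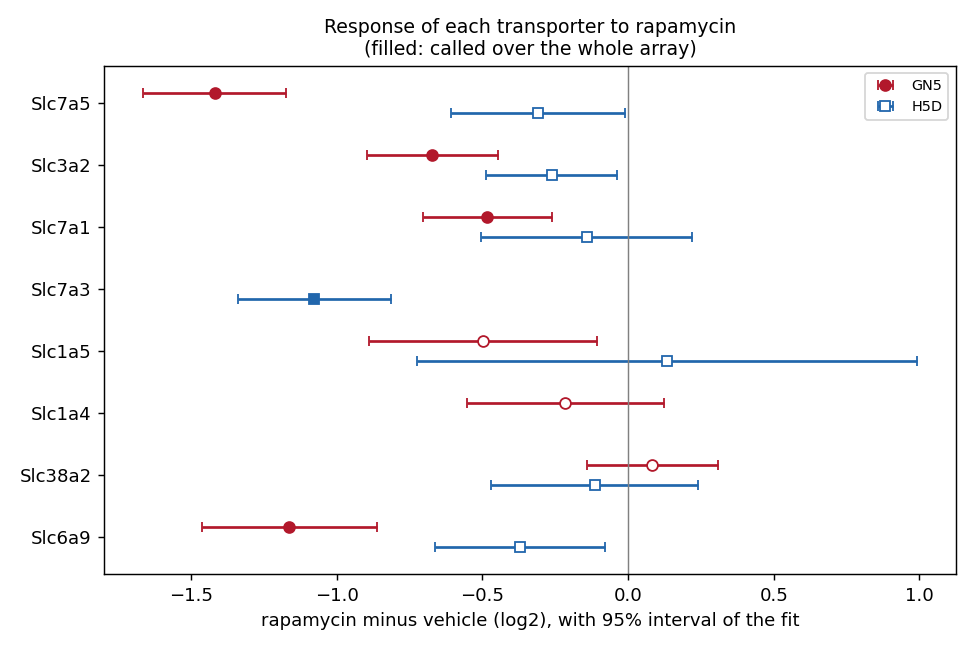
Rapamycin minus vehicle (horizontal axis, log2) for each tested member in GN5 (circles) and H5D (squares), with the 95% interval of the fit from 3 arrays a group, filled where the probe was called over the whole array. Slc7a5 in GN5 lies farthest left at -1.42, and Slc7a3 is the only filled H5D point, at -1.08.

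The response itself was compared between the lines in a fit over all 12 arrays, as the GN5 difference minus the H5D difference. Of 8 members tested, 2 were called, against 1.41% of all probes, and 1 of the 2, Slc7a3, had no measured response in GN5. These fits use the arrays on which the members were picked, so neither they nor the comparisons of the lines that follow are independent evidence. For Slc7a5 the GN5 response was the lower, by -1.11 (SE 0.179, adjusted p = 0.00674 in limma). For Slc7a3 the fitted difference was 1.02, but this gene entered the fit through H5D vehicle alone and was undetected on all 6 GN5 arrays, so a difference of response cannot be stated for it. Slc6a9 had a difference of -0.79 (95% interval -1.22 to -0.36, adjusted p = 0.0738 in limma) that was not called, except without H5D vehicle replicate 2 (-0.90), without GN5 rapamycin replicate 1 (-0.92) or under common median scaling (-0.95). The Slc3a2 difference was -0.41 (95% interval -0.70 to -0.12, adjusted p = 0.173 in limma), and it was called under common median scaling alone (-0.78). The remaining intervals held 0: -0.76 to 0.08 for Slc7a1, -1.65 to 0.39 for Slc1a5, -0.22 to 0.61 for Slc38a2 and -0.35 to 0.58 for Slc1a4. With GN5 vehicle replicate 1 as the only GN5 vehicle array, neither Slc7a5 (-1.15) nor Slc7a3 (0.95) was called.

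Under vehicle, the lines differed in 7 of 8 members tested, against 63.3% of all probes, so a difference between lines was common on this array. Slc7a3, 1 of the 7, was tested only through its detection in H5D, which favoured a difference in that direction. Slc1a4, the member not called, was tested only through its detection in GN5. Higher in GN5 were Slc7a5, by 1.02 (SE 0.122, adjusted p = 2.84e-05 in limma), its heavy chain Slc3a2, by 0.55 (SE 0.108, adjusted p = 0.00108 in limma), the cationic carrier Slc7a1, by 0.57 (SE 0.149, adjusted p = 0.00667 in limma), and the glycine carrier Slc6a9, by 0.45 (SE 0.142, adjusted p = 0.0183 in limma). The Slc6a9 call was lost under 6 of 17 alternatives, among them the analyses without H5D vehicle replicate 3 (0.31) or GN5 vehicle replicate 3 (0.36). Lower in GN5 were Slc1a5, by -1.99 (SE 0.308, adjusted p = 0.000204 in limma), a 3.96-fold difference (-1.37 with the authors' values or without background correction), and Slc38a2, by -0.62 (SE 0.155, adjusted p = 0.00504 in limma). Slc7a3 was at least 1.61-fold lower in GN5, where it was undetected. Slc1a4, with a difference of 0.42 (95% interval 0.04 to 0.81), was not called (adjusted p = 0.0549 in limma), but was without H5D vehicle replicate 3 (0.54) or GN5 vehicle replicate 3 (0.60). With GN5 vehicle replicate 1 as the only GN5 vehicle array, Slc38a2 (-0.57), Slc6a9 (0.31) and Slc7a1 (0.47) were not called and Slc1a4 (0.75) was.

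With rapamycin in both lines, 4 of 7 members differed, against 72.2% of all probes. Among them, Slc1a4 was tested only through its detection in GN5. Slc1a5 (detected on 2 of 3 GN5 rapamycin arrays) and Slc6a9 (on 1 of 3) were tested only through their detection in H5D. The filter thus favoured a difference in these directions. Slc1a5 was again lower in GN5, by -2.62 (SE 0.258, adjusted p = 1.57e-06 in limma), a 6.14-fold difference (-1.72 with the authors' values and -1.71 without background correction), and Slc38a2 by -0.42 (SE 0.103, adjusted p = 0.00287 in limma). Slc6a9, which was higher in GN5 under vehicle, was lower in GN5 under rapamycin, by -0.35 (SE 0.125, adjusted p = 0.0248 in limma). That call was lost under 9 of 16 alternatives, among them the authors' values (-0.16) and the analyses without H5D rapamycin replicate 2 (-0.35), GN5 rapamycin replicate 2 (-0.35) or GN5 rapamycin replicate 3 (-0.21). Slc1a4 was undetected in H5D with rapamycin. On the background-corrected scale it was at least 1.28-fold higher in GN5, taken against the lowest detected signal of each H5D array. Its fitted difference was 0.54 (95% interval 0.31 to 0.76), and the lowest value under the alternatives was 0.25. The differences of Slc7a5 (-0.09, 95% interval -0.36 to 0.18) and Slc3a2 (0.14, 95% interval -0.07 to 0.36) were not called. Under common median scaling, however, Slc7a5 was called lower in GN5 (-0.38). Slc7a1 (0.23, 95% interval -0.02 to 0.48) was not called either, except without H5D rapamycin replicate 3 (0.31). Slc7a3 was not tested, as neither rapamycin group detected it.

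**Figure D3:**
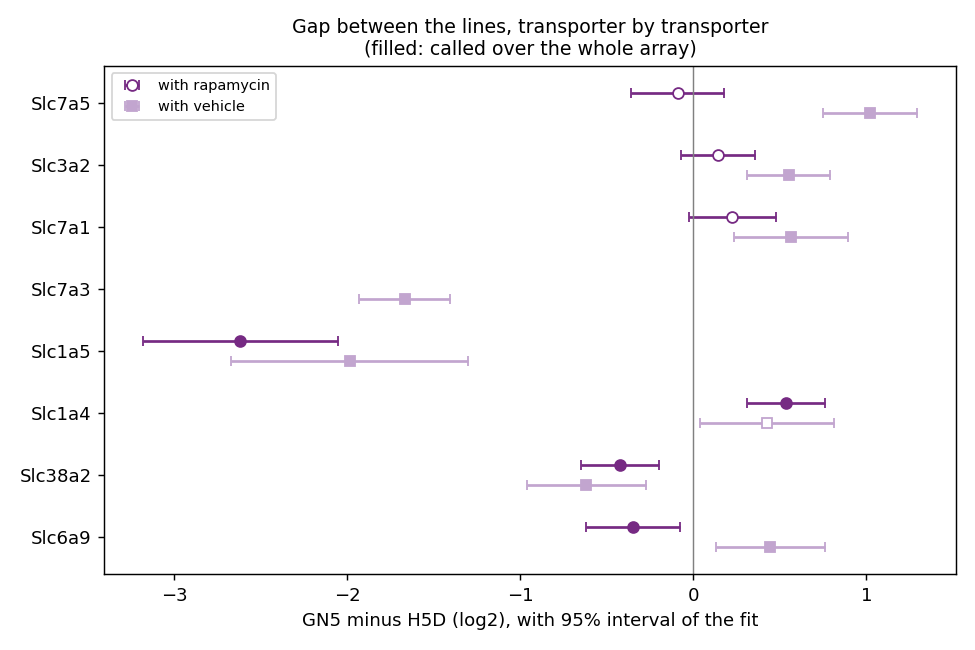
GN5 minus H5D (horizontal axis, log2) for each tested member with rapamycin (circles) and with vehicle (squares), with the 95% interval of the fit from 3 arrays a group, filled where called. Slc1a5 lies far to the left under both treatments (-2.62 and -1.99), while Slc7a5 lies at -0.09 with rapamycin and at 1.02 with vehicle.

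Other amino acid transporters were taken from a list of 43 genes, of which 36 were on the array. With rapamycin in GN5, 3 of 7 tested had an unadjusted p below 0.05 in limma, against 1782 of the 7449 probes tested. Of the 7, 1 was called, against 515 of all probes. This was Slc6a6, the taurine transporter, which measured 5.85 on average in GN5 rapamycin and 6.66 in GN5 vehicle, a difference of -0.82 (SE 0.132, adjusted p = 0.00409 in limma). In H5D limma called 0 of 11, against 57 of 7895 probes, with 2 at an unadjusted p below 0.05, against 1317 of all probes. The methods' t-test called 0 when adjusted over all probes tested and 1 with probes under 1.2-fold left out first. Their median difference was -0.02 in GN5 and 0.04 in H5D. For the difference of the responses, limma called 0 of 12, against 120 of 8539 probes, with 3 at an unadjusted p below 0.05, against 1235 of all probes. With so few genes tested, these counts do not set the other transporters apart from the array.

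Between the lines, 9 of the 12 other transporters tested differed under vehicle, against 63.3% of all probes. Of the 9, Slc38a1, Slc6a15, Slc7a7 and Slc43a2 were tested only through their detection in H5D. Slc7a9 was tested only through its detection in GN5. Slc38a1 (SNAT1, a sodium-coupled carrier of neutral amino acids) was lower in GN5 by -3.61 (SE 0.114), with detection on 1 of 3 GN5 vehicle arrays. Slc7a7, a further light chain of Slc3a2, was at least 4.34-fold lower in GN5, where it was undetected. The glutamate carrier Slc1a1 (-1.82), the neutral carrier Slc6a15 (-1.43, detected on 1 of 3 GN5 vehicle arrays) and Slc6a6 (-0.88) were lower in GN5 as well. Slc43a2, undetected in GN5, was at least 1.06-fold lower. Higher in GN5 were Slc7a6 (0.93), another light chain of Slc3a2, Slc38a10 (1.00) and Slc7a9, which was undetected in H5D and at least 2.91-fold higher in GN5. Slc3a1, the heavy chain that binds Slc7a9, was detected on 1 of 3 GN5 rapamycin arrays, 1 of 3 GN5 vehicle arrays and no H5D array. Under rapamycin 11 of 12 differed, against 72.2% of all probes. Among them, Slc1a2, Slc38a1, Slc6a15, Slc7a7 and Slc43a2 were tested only through H5D, and Slc7a9 only through GN5.

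**Figure D4:**
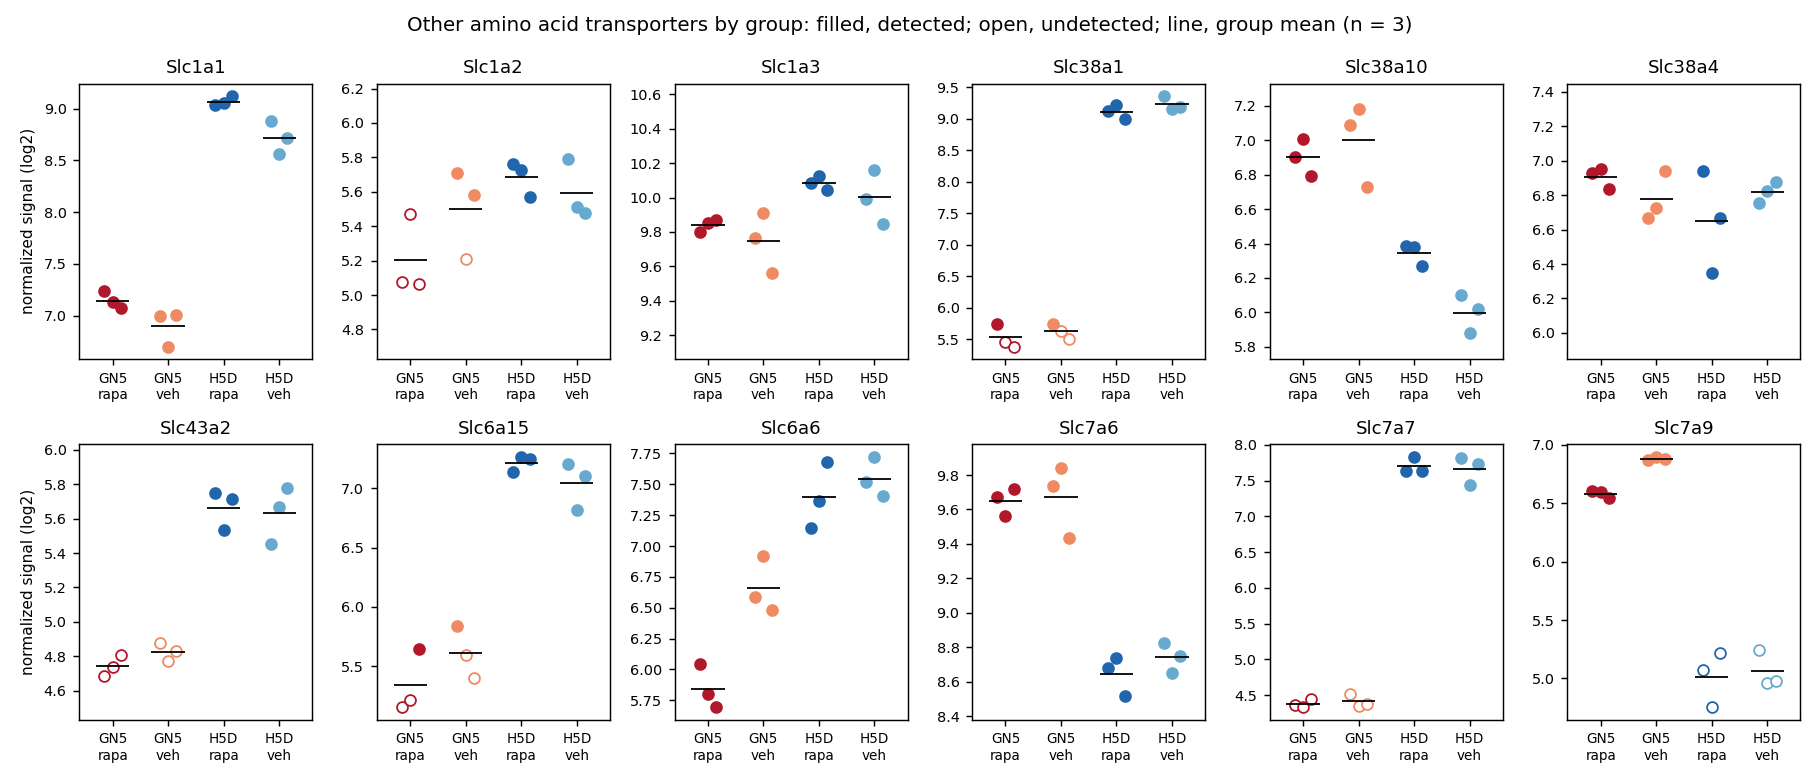
Normalized log2 signal (vertical axes, scaled per panel) of the 12 other amino acid transporters that entered a test, in the same group order, with filled points for detected and open points for undetected arrays and a line at the mean of 3. Slc38a1 and Slc7a7 lie higher in H5D under both treatments, and Slc6a6 lies lower in GN5 rapamycin (mean 5.85) than in GN5 vehicle (mean 6.66).

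The genes whose pattern was most like each member were found by Pearson's r over the 12 arrays after subtracting the mean of each line, among 6413 probes. The arrays share their treatment groups, so r describes likeness only. For Slc7a5 they were Gars1 (r = 0.968), Dtx4 (0.947) and Psmb10 (0.946), and for Slc3a2 Ifi27l2b (0.964), Psph (0.958) and Trib3 (0.955). Slc6a9 was most like Eif4ebp1 (0.959), Cbs (0.957) and Crcp (0.953). For the cationic carriers they were Ddx31 (0.938), Ppp1r14b (0.937) and Ctu2 (0.931) with Slc7a1, and Wnt16 (0.962), Tubb2a (0.955) and Taf6l (0.941) with Slc7a3. Slc7a3 was detected on the H5D vehicle arrays alone, so its r rests largely on those arrays. For the members not called with rapamycin, the top r was 0.913 for Slc1a4 (Cars2, then Gtf2b and Gusb), 0.924 for Slc1a5 (Apmap, then Psmc5 and Ano1) and 0.925 for Slc38a2 (Pdp2, then Cd164 and Cdkl1). The treatment difference stayed in r, so these values were not set against those of the called members.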

How the data were processed

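Total RNA of 12 plates was hybridised to Illumina RatRef-12 BeadChips. The deposited bead table holds 1 linear intensity per probe and array as scanned, neither background subtracted nor normalized, with a detection p-value that was also deposited. A second deposited table holds intensities that the authors quantile normalized in BeadStudio before analysis in Partek 6.3, per the labels and methods; it served as an alternative. Here, intensities were background corrected from the detection p-values (neqc, offset 16), quantile normalized over 12 arrays and put on the log2 scale, which understates the change of dim probes. A probe was tested if detected (p at most 0.01) on all 3 arrays of at least 1 group compared. Linear models (lmFit and eBayes, limma 3.58.1, R 4.3.3, two-sided) were fitted over all probes tested per comparison, with Benjamini-Hochberg adjustment. The brightest tested probe stood for a gene. Errors are SEs of the fit. Where a group was undetected, a fold given as at least a value was taken on the background-corrected scale. It sets the other group's mean against the lowest detected signal of each undetected array, and it does not include the spread between plates. The number of arrays limits the precision. The platform annotation gave a symbol for 13793 probes, of which 13752 were updated by Entrez identifier. The model was tested on simulated data.

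The members and lists were chosen with earlier results of these data known. Named genes were all members, other transporters called with rapamycin or in the difference of the responses, up to 6 of the largest line differences in each direction under vehicle, and 3 genes most like each member. The 5 motifs were tried in turn on the member promoters, and all are given.

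The methods' t-test excludes probes under 1.2-fold. It was first computed with adjustment over all probes tested and the fold minimum applied afterwards. After those counts had been seen, it was also computed with probes under 1.2-fold left out before adjustment, which is closer to the wording of the study's methods but selects probes on the outcome. Both are reported.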

Additional observations from a re-analysis of the deposited data

Results flagged for a closer look

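The test of the difference between the lines' responses over 12 arrays called 2 members. For Slc7a5 the GN5 response minus the H5D response was -1.11 on the log2 scale (adjusted p = 0.00674, limma), with -1.42 in GN5 and -0.31 in H5D. For Slc7a3 the fitted value was 1.02, with -1.08 in H5D, but with no detected signal on any of the 6 GN5 arrays a difference of response cannot be stated. Both genes were members picked with results of these arrays known.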

How the results depend on the processing

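Of 630 alternative values of single members, 570 kept their direction and their side of the threshold, 35 lost a call, 12 gained a call and 13 changed sign, none of the 13 being called. Under common median scaling, which moved the median of all probes to -0.14 in GN5, 0.17 in H5D and -0.29 in the difference of the responses, 857 probes were called in GN5 (515 in the fit reported), 164 in H5D (57) and 252 in the difference (120). It called 4 members and 1 other transporter in the difference and 2 other transporters in GN5, and turned Slc38a2 to -0.14 in GN5, 0.04 in H5D and -0.18 in the difference, Slc7a1 to 0.01 in H5D, Slc3a2 to -0.072 between lines under rapamycin and Slc1a4 to -0.002 in the difference. Without the filter, 233 probes were called in GN5 and 31 in H5D. In H5D, 87 were called with the authors' values, 92 without background correction and 290 with all 12 arrays in the fit.

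The methods' t-test, adjusted over all probes tested with the 1.2-fold minimum after, called 38 probes and 1 member in GN5, 0 probes and 0 members in H5D (against 57 and 1 in limma, and 1317 probes and 4 members at an unadjusted p below 0.05 in limma), and 4 members between the lines under vehicle. With probes under 1.2-fold left out before adjustment, an order chosen after those counts had been seen, it called 560 probes, 4 members and 2 other transporters in GN5, 300 probes, 1 member and 1 other transporter in H5D, and 6 members between the lines under vehicle. How many members pass the t-test therefore depends on that order. Between the lines under vehicle, limma called 7 of 8 members, against 63.3% of all probes tested. The t-test's own share over all probes is not given here, so its member counts between the lines describe the processing only.

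With GN5 vehicle replicate 1 as the only GN5 vehicle array, a setting also chosen after seeing the data in which the lone array is assumed to vary like the others, 93 probes, 2 members and 0 other transporters were called in GN5, and 14 probes and 0 members in the difference, where Slc1a4 was -0.22. Leaving out 1 array at a time gave 167 to 967 probes in GN5, 0 to 42 probes and 0 to 1 members in H5D, and 58 to 134 probes in the difference. The H5D member call was lost without vehicle replicate 1, rapamycin replicate 1 or rapamycin replicate 2. Signs turned for 4 uncalled values: Slc38a2 in H5D ranged from -0.277 to 0.042 (above 0 without vehicle replicate 1), Slc1a5 in H5D from -0.242 to 0.527 (below 0 without vehicle replicate 2 or, at -0.175, rapamycin replicate 1), Slc7a5 between lines under rapamycin from -0.193 to 0.002 (above 0 without GN5 rapamycin replicate 1) and Slc1a4 in the difference from -0.063 to 0.281 (below 0 without GN5 vehicle replicate 3 or, at -0.001, H5D vehicle replicate 3). The cause of these changes was not tested.

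Same-numbered arrays did not deviate together in every pair (correlations -0.212 to 0.096 in GN5, -0.358 to 0.201 in H5D, -0.178 to 0.301 between lines under vehicle and -0.104 to -0.033 under rapamycin). Whether the replicate numbers pair the plates cannot be told from so few arrays, and the fits reported left the numbers out. With the replicate number as a block, 330 probes and 5 members, Slc1a5 (-0.50) among them, were called in GN5 and 15 probes and 1 member in H5D. Signals near background, as for Slc1a4, Slc6a9, Slc7a3, Slc7a1 and, in GN5, Slc1a5, limit what can be measured.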
